A study of Homo sapiens with 2 samples.

Results

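The aldehyde dehydrogenases examined here are 10 human genes, ALDH1A1, ALDH1A2, ALDH1A3, ALDH1B1, ALDH2, ALDH3A1, ALDH3A2, ALDH3B1, ALDH7A1 and ALDH9A1. They were taken by name, and their probes were found through the RefSeq accession that the array files give each probe. They are 10 of the 17240 genes that could be named on the arrays in this way, and they carried 14 of the 41000 probes. Of the 10 genes, 6 had 1 probe and 4 had 2 probes (ALDH1A2, ALDH1B1, ALDH2 and ALDH7A1), and every member probe was printed as 1 spot.

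The enzymes of this family oxidise aldehydes to carboxylic acids with NAD or NADP as the cofactor. ALDH1A1, ALDH1A2 and ALDH1A3 turn retinal into retinoic acid, the ligand of the retinoic acid receptors, while other members clear acetaldehyde, fatty aldehydes and the aldehydes that arise from amines and amino acids. In ovarian carcinoma, high aldehyde dehydrogenase activity, often measured together with ALDH1A1, is widely used to sort cells with properties of stem cells.

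The cells were SKOV3, an established line of human ovarian adenocarcinoma. In the clone cl-sh3, RUNX2, a transcription factor of the runt family, was silenced with a short hairpin RNA carried by the lentiviral pLKO.1-puro vector. The control clone, called mock-transfected in the labels, carried a scramble hairpin in the same vector, and both clones had been selected with puromycin. RNA of both clones was co-hybridized to 2-colour Agilent whole human genome arrays, with cl-sh3 in Cy5 and the control in Cy3 in hybridization 1 and the dyes exchanged in hybridization 2. Each group was 1 clone, so a property of the clone and an effect of the RUNX2 hairpin cannot be told apart. Both arrays held the same 2 RNAs, which is 1 replicate. No p-value can be given for any difference between the clones, and how far the hybridizations lie apart measures technical error alone.

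The sequence around the start site is shown for the 3 genes on which the values below turn or whose window held the letters TGTGGT, the core of the site that RUNX proteins bind. The windows are from RefSeq (GRCh38.p14), run from 250 bases before to 50 bases after the annotated start, and are printed 5′ to 3′ on the strand of the gene. Capitals mark TGTGGT or CCAAT, the box bound by nuclear factor Y, searched on both strands; the motifs share no bases in these windows. ALDH1A1 (chr9:72953004-72953303, minus strand) had no TGTGGT in its window and a CCAAT beginning at -74. ALDH9A1 (chr1:165698513-165698812, minus strand) had TGTGGT at -168. ALDH3B1 (chr11:68010077-68010376, plus strand, the second of the windows listed for the gene) had TGTGGT at -153.
ALDH1A1: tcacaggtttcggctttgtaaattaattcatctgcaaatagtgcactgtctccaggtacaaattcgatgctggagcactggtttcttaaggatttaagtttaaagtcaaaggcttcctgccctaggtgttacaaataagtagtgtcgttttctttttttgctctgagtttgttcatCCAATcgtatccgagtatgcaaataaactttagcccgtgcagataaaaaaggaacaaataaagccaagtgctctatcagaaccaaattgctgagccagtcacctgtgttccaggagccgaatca
ALDH9A1: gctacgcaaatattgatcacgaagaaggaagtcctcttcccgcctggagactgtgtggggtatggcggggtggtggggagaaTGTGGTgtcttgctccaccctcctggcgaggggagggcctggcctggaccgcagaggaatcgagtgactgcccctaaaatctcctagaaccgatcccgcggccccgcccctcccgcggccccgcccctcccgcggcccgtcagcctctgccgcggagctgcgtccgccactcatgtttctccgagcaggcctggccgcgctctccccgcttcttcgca
ALDH3B1: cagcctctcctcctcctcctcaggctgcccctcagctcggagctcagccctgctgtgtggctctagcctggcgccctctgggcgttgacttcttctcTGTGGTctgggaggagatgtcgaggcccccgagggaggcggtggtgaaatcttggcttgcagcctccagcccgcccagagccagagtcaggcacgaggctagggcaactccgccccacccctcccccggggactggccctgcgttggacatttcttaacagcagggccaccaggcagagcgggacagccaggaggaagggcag

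RefSeq windows were matched for 8 of the 10 genes, 11 windows in all, and ALDH2 and ALDH3A1 were not among them. TGTGGT was in 2 of the 11 windows and in 13.1% of all 35116 windows of that length. CCAAT was in 6 of the 11 (ALDH1A1, ALDH1A2, ALDH1A3, ALDH1B1, ALDH3A2 and ALDH7A1) and in 34.6% of all windows. The ALDH1A1 window had 40.3% G and C and 7 CpG sites, against a median of 58.7% and 14 over all windows, and 11.8% of windows had a lower G and C content. ALDH9A1 had 66.7% G and C with 26 CpG sites, and the printed ALDH3B1 window had 66.7% with 12. These matches describe letters in the windows, and binding was not measured on these arrays.

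Cy5 had the higher local background on both arrays. The median spot signal was 451 over a median local background of 46 for the control in Cy3 and 902.5 over 166.5 for cl-sh3 in Cy5 in hybridization 1. In hybridization 2 these were 507.5 over 43 for cl-sh3 in Cy3 and 684 over 164 for the control in Cy5, and the share of spots well above background ranged from 77.3% for that control channel to 93.9% for cl-sh3. The probes of the targeted gene, RUNX2, disagreed. A_32_P161762 gave log2 ratios of cl-sh3 over control of -2.04 and -1.30, which is a 3.18-fold lower level by their mean. A_24_P69267, listed under the same transcript accession and also well above background in both RNAs, gave 0.17 and -0.13, and A_32_P148058, listed under another transcript, gave -0.29 and -0.17. All 12 epithelial markers examined passed the background filter described below, and their median log2 ratio of cl-sh3 over control was 0.45, with 9 of the 12 above 0 in both hybridizations. Over all probes that passed, the median was 0.01 and 29.8% were above 0 in both. Of the other markers, 2 had opposite signs and ERBB2 was below 0 in both, at -0.86 and -0.45. The dimmer ERBB2 probe gave 0.26 and 0.18. Of 9 leukocyte markers, 7 passed the filter too, with a median of 0.12, so that passing it was not particular to genes of epithelial cells. What part these markers have in the ratios of the aldehyde dehydrogenases was not tested.

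Probes were kept when the same RNA stood well above background on each array, which left 36065 probes and 13 of the 14 aldehyde dehydrogenase probes. The probe left out was A_24_P73577, the dimmer of the pair for ALDH1A2, which had no channel well above background. All 10 genes therefore had a kept probe, and in 8 of them both RNAs were well above background in both hybridizations. The exceptions were ALDH1A1 and ALDH3A1. A probe was called when its ratio passed 2-fold in the same direction in hybridization 1 and in hybridization 2. Of the 13 kept probes, 1 was called lower, that of ALDH9A1, against 0.394% of all kept probes, and 0 were called higher, against 0.122%. Called probes of either direction made up 0.516% of all kept probes. ALDH1A1 was past 2-fold in 1 hybridization only, and at least 2-fold lower in 1 hybridization or both was seen in 1.55% of all kept probes.

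**Figure D1:**
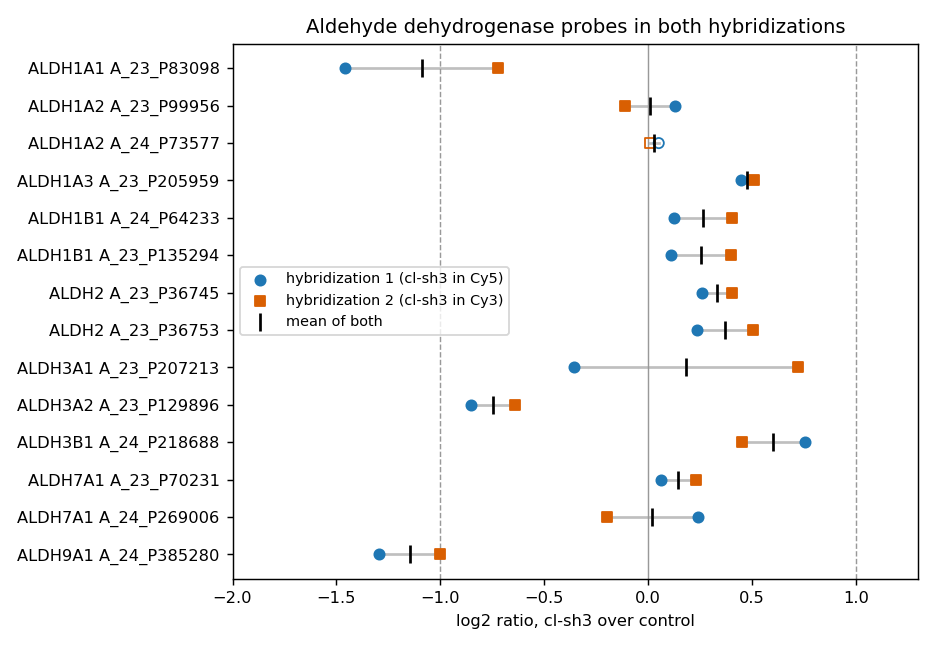
Log2 ratio of cl-sh3 over control (horizontal axis) for each of the 14 probes of the 10 genes. Circles are hybridization 1, squares hybridization 2, black ticks their mean, open symbols the ALDH1A2 probe not above background, and dashed lines mark 2-fold; only ALDH9A1 reached -1 in both hybridizations, while ALDH1A1 spread from -1.46 to -0.72 and ALDH3A1 from -0.36 to 0.72.

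The retinal dehydrogenases ALDH1A1, ALDH1A2 and ALDH1A3 differed from each other in direction. For ALDH1A1 (probe A_23_P83098), the raw spot signal in hybridization 1 was 278 over a local background of 192 for cl-sh3 and 192.5 over 44 for the control. In hybridization 2 it was 118 over 41 for cl-sh3 and 349 over 158 for the control. The control RNA was thus well above background on both arrays, and the cl-sh3 RNA in hybridization 2 only, so the level of cl-sh3 in hybridization 1 was not measured above background. The log2 ratio of cl-sh3 over control was -1.46 in hybridization 1 and -0.72 in hybridization 2. In hybridization 2, where both RNAs were measured above background, this was 1.65-fold lower. The mean of -1.09, from which each hybridization lay 0.37 away, includes the unmeasured channel and is not given as a fold. In RNA of a whole culture, fewer cells with the transcript and less of it per cell cannot be told apart.

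The ALDH1A1 probe lay near the lower end of what the scanner could measure, with 2.59% of the kept probes dimmer than it. It was kept through the control RNA alone, and a filter that required both RNAs above background in both hybridizations left it out. Its hybridizations also differed more than most, by 0.73 on the log2 scale, a gap exceeded by 2.21% of the kept probes. Counted by the mean of both hybridizations alone, ALDH1A1 joined ALDH9A1 past 2-fold lower, a level that 0.693% of all kept probes reached. For ALDH1A1 that mean includes the cl-sh3 channel not measured above background, so it does not establish a 2-fold difference.

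ALDH1A2 was close to even between the clones. Its brighter probe (A_23_P99956) had 551 over 141 for cl-sh3 and 238 over 46.5 for the control in hybridization 1, and 305 over 40.5 against 506 over 172 in hybridization 2. The log2 ratios were 0.13 and -0.11, opposite in sign, with a mean of 0.01. ALDH1A3 (probe A_23_P205959) lay on the other side of 0 from ALDH1A1. Its cl-sh3 signals were 1384 over 150 and 837.5 over 48, and its control signals 524 over 47 and 766.5 over 159. The log2 ratios of 0.44 and 0.51 were nearly equal and gave a mean of 0.48, or 1.39-fold higher, below the 2-fold threshold. ALDH1A3 had the closest hybridizations of the kept member probes, 0.06 apart.

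The mitochondrial enzymes ALDH2, the main acetaldehyde dehydrogenase, and ALDH1B1, which also oxidises acetaldehyde, each had 2 probes, and these gave like values. For ALDH2, the brighter probe (A_23_P36745) had cl-sh3 signals of 5626 over 188 and 3389 over 40.5, and control signals of 2624.5 over 47 and 2861.5 over 185. Its log2 ratios were 0.26 and 0.40, with a mean of 0.33. The other probe (A_23_P36753) gave 0.24 and 0.50, with a mean of 0.37, so the means of the pair lay within the gap between the hybridizations. For ALDH1B1, the brighter probe (A_24_P64233) had cl-sh3 signals of 1257 over 185 and 969 over 45, and control signals of 574 over 53 and 963 over 199. Its log2 ratios were 0.13 and 0.40, and those of the other probe (A_23_P135294) were 0.11 and 0.40, with means of 0.26 and 0.25. Neither ALDH1B1 mean exceeded the gap between the hybridizations of its probe. In all 4 probes of ALDH2 and ALDH1B1 hybridization 2 gave the higher ratio, and none came near 2-fold.

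**Figure D2:**
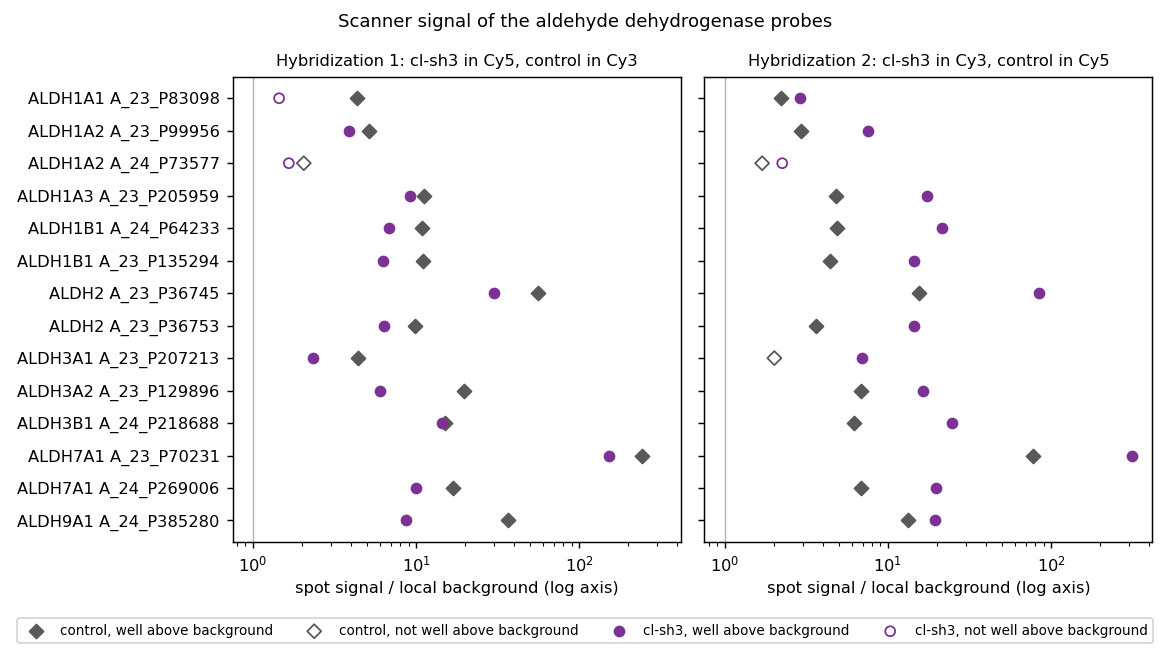
Raw spot signal divided by local background (log axes) for each probe in hybridization 1 (left) and hybridization 2 (right). Diamonds are the control and circles cl-sh3, and open symbols were not well above background; cl-sh3 of ALDH1A1 sat at 1.45 times the background in hybridization 1 and 2.88 times in hybridization 2, and within a panel the colours differ in background, so the channels are not to be compared directly.

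The ALDH3 enzymes, which oxidise aromatic and fatty aldehydes, showed 3 different pictures. ALDH3A2, the fatty aldehyde dehydrogenase of the endoplasmic reticulum, whose loss causes Sjögren-Larsson syndrome, had cl-sh3 signals of 1074 over 179.5 and 717 over 44, and control signals of 927 over 47 and 1363 over 198 (probe A_23_P129896). Its log2 ratios were -0.85 and -0.64, with a mean of -0.75, or 1.68-fold lower. Both hybridizations placed it below 0 and neither reached 2-fold, and 736 of the kept probes had a lower mean. ALDH3B1, which acts on medium- and long-chain aldehydes, had the highest mean of the members. Its signals were 2150 over 150 and 1090 over 44 for cl-sh3, and 677 over 45 and 995 over 160.5 for the control (probe A_24_P218688). The log2 ratios of 0.75 and 0.45 gave a mean of 0.60, or 1.52-fold higher, and 763 of the kept probes had a higher mean. ALDH3B1 is also the gene, besides ALDH9A1, whose printed window held TGTGGT. What part these letters have in the ratio of either gene was not tested.

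ALDH3A1, an enzyme best known as an abundant protein of the cornea, could not be placed above or below 0. Its signals were 414 over 176 and 310 over 45 for cl-sh3, and 207 over 47 and 370.5 over 184 for the control (probe A_23_P207213). The control was well above background in hybridization 1 only. The log2 ratio was -0.36 in hybridization 1 and 0.72 in hybridization 2. After normalization the RNA labelled with Cy3 was thus the higher in both, although its raw signal was the lower. The hybridizations were 1.08 apart, a gap exceeded by 0.0998% of the kept probes, and their mean of 0.18 describes neither. ALDH3A1 and ALDH3A2 both lie on chromosome 17, with SLC47A2 between them in the annotation.

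ALDH7A1 and ALDH9A1 act on aldehydes from amino acid and amine breakdown. ALDH7A1, or antiquitin, an enzyme of lysine breakdown, had 2 probes. The brighter (A_23_P70231) had signals of 24038.1 over 158 and 14104 over 45 for cl-sh3, and 12368 over 51 and 12537 over 162 for the control. Its log2 ratios were 0.06 and 0.23, with a mean of 0.15. The other (A_24_P269006) gave 0.24 and -0.20, with a mean of 0.02. The mean of neither ALDH7A1 probe exceeded the gap between its hybridizations.

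ALDH9A1, which oxidises γ-trimethylaminobutyraldehyde in the synthesis of carnitine, had the lowest mean of the members. In hybridization 1 its probe (A_24_P385280) read 1468 over 169 for cl-sh3 and 1822 over 50 for the control, and in hybridization 2 it read 792 over 41 and 1797 over 136. Both RNAs were well above background in both hybridizations, unlike ALDH1A1. The log2 ratios were -1.30 and -1.001, or 2.45-fold and 2.00-fold lower, with a mean of -1.15, from which each hybridization lay 0.15 away, or 2.22-fold lower. The ratio of hybridization 2 lay just inside the 2-fold threshold. Among all kept probes 147 had a lower mean than ALDH9A1. Among the 3606 probes of its brightness class, of 10 classes by mean intensity, 27 did, and 0.61% were called lower.

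**Figure D3:**
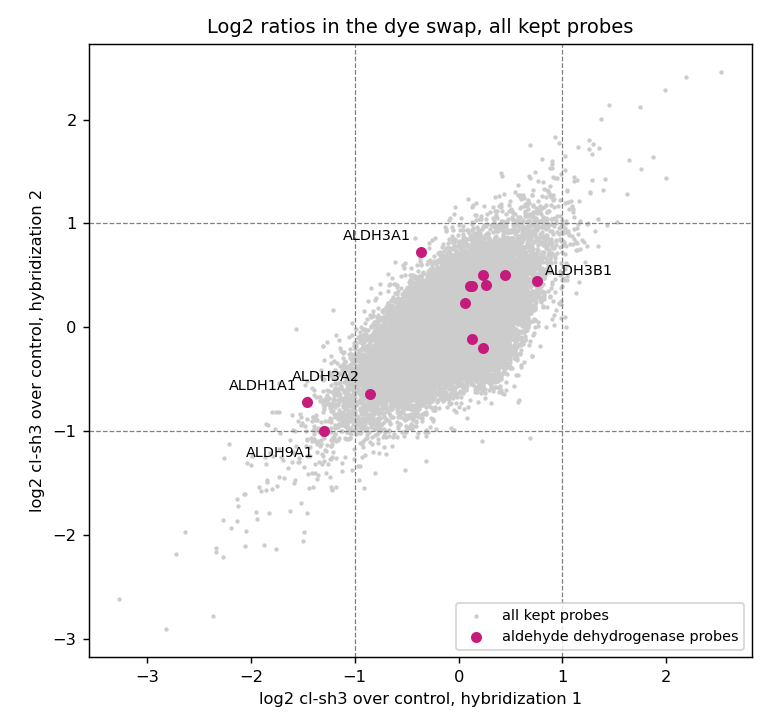
Log2 ratio of cl-sh3 over control in hybridization 1 (horizontal axis) against hybridization 2 (vertical axis) for all kept probes (grey) and the 13 kept aldehyde dehydrogenase probes (magenta), with dashed lines at 2-fold. ALDH9A1 lies at the corner of the lower left region at -1.30 and -1.001, ALDH1A1 is above that region at -0.72 in hybridization 2, and ALDH3A1 lies off the main cloud.

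Set side by side, the 13 kept probes fell into 7 above 0 in both hybridizations, 3 below 0 in both (ALDH1A1, ALDH3A2 and ALDH9A1) and 3 with opposite signs (ALDH1A2, ALDH3A1 and the dimmer ALDH7A1 probe). Over all kept probes, 29.8% were above 0 in both, 27.3% below 0 in both and 42.9% had opposite signs. With each gene given by its brightest probe, the median log2 ratio of the 10 genes was 0.16, at 0.09 in hybridization 1 and 0.32 in hybridization 2, beside a median of 0.01 over all kept probes. Without ALDH1A1 the median was 0.18. The members did not share a direction, and the 3 lowest belonged to 3 branches, a retinal, a fatty aldehyde and an amine-derived aldehyde dehydrogenase, on chromosomes 9, 17 and 1. The technical gap between hybridizations was 0.22 at the median and 0.63 at the 95th percentile of the kept probes, and of the members only ALDH1A1 and ALDH3A1 exceeded the latter.

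How low ALDH1A1 was depended on how its dim signal was treated. The scanner software's own ratio, which subtracts the background and uses no offset, gave log2 values of -2.69 and -2.10, with a mean of -2.40. The software's processed signals were 23.1 for cl-sh3 and 149 for the control in hybridization 1, and 23.7 and 102 in hybridization 2. The same normexp correction with an offset of 0 in place of 50 gave -2.38 and -1.11, with a mean of -1.74, while uncorrected signals gave a mean of -0.63. With cl-sh3 not measured above background in hybridization 1, no exact fold can be read from these values. ALDH1A1 was below 0 under all 10 of the alternatives in correction, normalization, flags, filter, source of ratios and hybridization that gave it a value, which ran from -2.40 to -0.63. It was past 2-fold under 4 of these 10, which were offset 0, the software's ratio, the deposited table and hybridization 1 alone, and also with the rule on the mean. Averaging the probes of a gene left it as it was, since it had 1 probe. Aquantile and dropping the detection filter could not change its ratio either, and the deposited table repeats the software's ratio. By the software's ratio both ALDH1A1 and ALDH9A1 were called lower, against 0.702% of the kept probes, and again 0 member probes were called higher, against 0.286%.

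The other members moved less with the processing. ALDH9A1 ranged from -1.30 to -1.001 over 11 alternatives of the same kinds, always below 0, and met the 2-fold rule in 9. Several of the 9 could not have come out otherwise. Aquantile and the other detection filters left its ratios unchanged, each hybridization alone passes once both do, and the deposited table repeats the software's ratio. ALDH9A1 missed the rule with uncorrected signals and with median centring, so the call depended on these steps. ALDH3A2 ranged from -0.85 to -0.64 and met it in 0 of 11. The kept probes of ALDH1A3, ALDH1B1, ALDH2 and ALDH3B1 and the brighter one of ALDH7A1 stayed above 0 in all 11, with ALDH3B1 between 0.45 and 0.75 and ALDH1A3 between 0.43 and 0.62. The sign varied for ALDH1A2, from -0.12 to 0.13, for the dimmer ALDH7A1 probe, from -0.20 to 0.24, and for ALDH3A1, from -0.36 to 0.72.

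**Figure D4:**
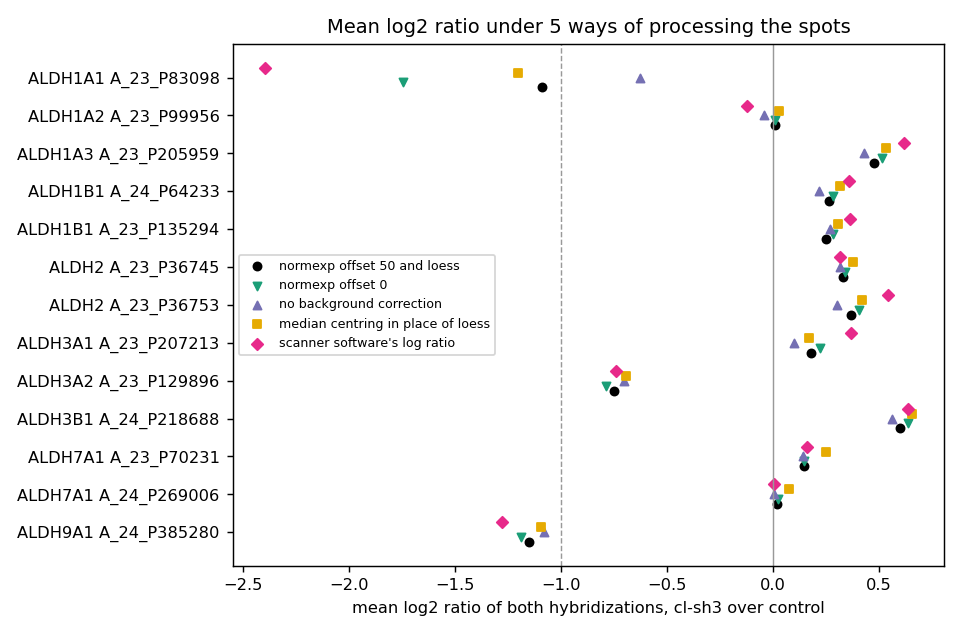
Mean log2 ratio of cl-sh3 over control of each kept probe under 5 ways of processing the same spots, with a dashed line at 2-fold lower. ALDH1A1 spreads from -2.40 to -0.63, whereas ALDH9A1 stays between -1.27 and -1.08 and ALDH3A2 between -0.79 and -0.69.

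The genes beside ALDH1A1 on chromosome 9 did not share its ratio. Of the 3 nearest measured genes on each side, ANXA1 gave log2 ratios of 0.17 and -0.14, TMC1 0.22 and -0.09, TRPM6 0.11 and -0.18, and ZFAND5 -0.10 and -0.45. GDA, a guanine deaminase, was higher at 0.72 and 0.62, and RORB was not well above background. None of these genes reached 2-fold in either hybridization. The named probes whose pair of ratios lay nearest to that of ALDH1A1, by Euclidean distance over the 2 hybridizations among 23391 probes, were those of PLK3 (-1.47 and -0.72), HOXB2, PSIP1, PRKAR1A and ZNF32, at distances from 0.0155 to 0.132. In all 5, both RNAs were well above background in both hybridizations, and their means by the scanner software's ratio lay between -1.22 and -0.98, where ALDH1A1 had -2.40. The 5 were picked for this likeness, and the hybridization 1 ratio of ALDH1A1 in it includes a channel not measured above background. Likeness over 2 values from 1 pair of RNAs is a description of these arrays.

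The rest of the superfamily had a median near that of the members. Of 9 other aldehyde dehydrogenase genes, 7 had a probe, all 7 were kept and 0 reached 2-fold. Their median log2 ratio was 0.14, beside 0.16 for the 10 members. Called probes made up 0.516% of all kept probes, so a count of 0 is what that share gives in lists this short, here and below. By the brightest probe, the highest was ALDH16A1 at 0.34 and 0.55 and the lowest ALDH8A1, an enzyme of the kynurenine pathway, at 0.11 and -0.24. The dimmer ALDH8A1 probe, also well above background in both RNAs, gave 0.36 and 0.30, so the probes of ALDH8A1 disagreed. No probe was named for ALDH1L2 or ALDH3B2.

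Genes that supply retinal or carry retinoids around the ALDH1A enzymes were mostly near even. Of the 22 genes of retinoid metabolism and binding reported here, 19 were kept and 0 met the 2-fold rule, against 0.516% of all kept probes. The list median was 0.02, beside 0.01 over all kept probes. The lowest was RBP4, which carries retinol in blood. Its signals were 1574.5 over 180 and 989 over 40 for cl-sh3, and 1677.5 over 44 and 2186.5 over 200 for the control. The log2 ratios were -1.08 and -0.93, so that RBP4 passed 2-fold in hybridization 1 and missed it in hybridization 2, and their mean was -1.01. The highest gene of the list was RDH11, a retinal reductase, at 0.23 and 0.48. Of 26 listed receptors and genes induced by retinoic acid, 23 were kept and 0 were called, with a median of -0.03. They ran from CYP26A1, which breaks down retinoic acid, at -0.71 and -0.29, to the homeobox gene HOXA5, at 0.42 and 0.79.

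The alcohol dehydrogenases and aldo-keto reductases, which make or reduce the aldehydes that the members oxidise, had 20 of 26 listed genes kept and 0 called. Called probes made up 0.516% of all kept probes, and the median of the list was 0.04. The lowest was ADH5, the glutathione-dependent formaldehyde dehydrogenase, at -0.96 and -0.90, short of 2-fold in both hybridizations, and the highest the aldehyde reductase AKR1A1, at 0.51 and 0.83. The dimmer probes of ADH5 gave -0.83 and -0.80, and -0.26 and -0.71, and that of AKR1A1 gave 0.34 and 0.43. Among partners in amine and fatty acid oxidation, 24 of 26 were kept and 0 called, with a median of -0.02. They ran from ACADM, the medium-chain acyl-CoA dehydrogenase, at -0.74 and -0.61, to BHMT, at 0.71 and 0.41. Of 19 stem cell markers that are read alongside aldehyde dehydrogenase activity, 17 were kept and 0 were called, with a median of 0.01. KLF4 was the lowest at -0.69 and -0.47 and POU5F1, which has near-identical pseudogene copies, the highest at 0.61 and 0.94. The dimmer POU5F1 probes had means from 0.18 to 0.57. The low ratio of ALDH1A1 stood beside stem cell markers of both signs, none of which reached 2-fold.

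**Figure D5:**
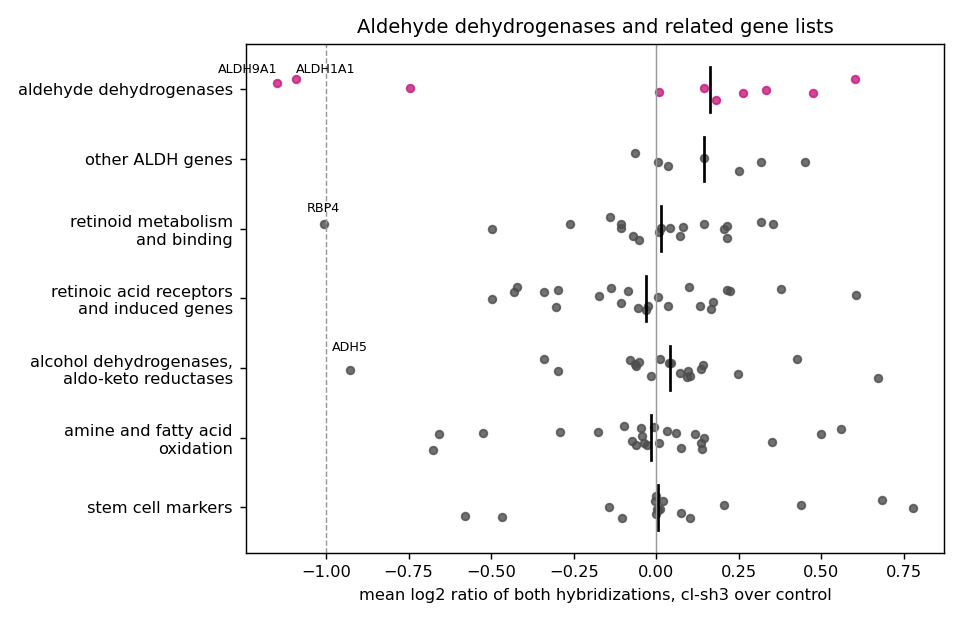
Mean log2 ratio of cl-sh3 over control of each kept gene, by its brightest probe, for the 10 aldehyde dehydrogenases (magenta) and 6 related lists (grey), with a black bar at each median and a dashed line at 2-fold lower; the vertical position within a row is arbitrary. ALDH9A1, ALDH1A1 and RBP4 are the genes whose mean is past the line, while every list median lies between -0.03 and 0.16. Of these genes only ALDH9A1 passed 2-fold in both hybridizations, and the ALDH1A1 mean includes a cl-sh3 channel not measured above background.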

How the data were processed

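The 10 genes and the gene lists were chosen with earlier results of these data known. The authors deposited the intensity of each spot (median signal and median local background) with outlier and background flags, and the log10 ratio of Feature Extraction (version 10.5.1.1 in the file headers, 8.5.1.1 in the submitters' processing notes), which subtracts background and normalizes dyes. The deposited table of log10 ratios equals it to within 0.0005 and 0.00173.

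Intensities were corrected by normexp (offset 50) in limma 3.58.1 (R 4.3.3). Controls were then removed, outlier-flagged spots left out and each array fitted by loess. Repeated spots were averaged, and the log2 ratio of the swapped array was given the opposite sign. An RNA was well above background where at least 50% of a probe's spots had the flag. Each gene was given by its brightest probe. Of 19228 RefSeq accessions, 18024 were named (GRCh38.p14 table); array coordinates, annotated on another build, were not used. Besides the members and RUNX2, the genes named were those of a list that met the 2-fold rule, the highest and lowest of each list, the neighbours and the nearest patterns of ALDH1A1; the marker lists' values were added after they were seen. Some items are not reported here, and the list counts and medians leave them out. The code was checked on simulated data. The alternatives were offset 0, uncorrected signals, median centring, Aquantile, flagged spots kept, 2 other detection filters, the software's and the deposited ratios, each hybridization alone, the mean in the 2-fold rule, and the mean over probes. Python 3.11.15 did the rest. With 1 pair of RNAs, the number of arrays limits the precision.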

Additional observations from a re-analysis of the deposited data

How the results depend on the processing

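ALDH1A1 stayed below 0 under every alternative that gave it a value. Its mean log2 ratio was -1.74 with normexp offset 0 and -2.40 by both the scanner software's ratio and the deposited table, and the single hybridizations gave -1.46 to -0.72. The count of member probes at least 2-fold in both hybridizations, 1 in the report, was 2 with offset 0, 2 by the software's ratio, 2 by the deposited table and 2 with the rule on the mean, ALDH9A1 and ALDH1A1 each time, and it was 0 with uncorrected signals and 0 with median centring. With either hybridization left out it was 1 to 2. Among the related pathway genes reported here the count was 0, and 1, that of RBP4, with the rule on the mean; single hybridizations gave 0 to 1. Over all kept probes, 186 were called in the report, 356 by the software's ratio, 354 by the deposited table, 343 with the rule on the mean and 415 to 594 in single hybridizations. The share of calls that were lower was 76.3% in the report, 61.7% with median centring and 47.2% in hybridization 2 alone. The member median kept its sign, at 0.09 to 0.32. No paired analysis was possible because both hybridizations hold the same pair of RNAs. Of 141 member values under the alternatives, 135 moved by less than 1 SD of the 2 hybridizations, 6 moved further, and 0 of the called values changed sign. Only the ALDH9A1 probe was called in the report, and the sign did vary for the uncalled probes of ALDH1A2 and ALDH3A1 and the dimmer one of ALDH7A1. Many of the 135 could not move further. Aquantile and the detection filters leave a probe's ratio unchanged, and 1 hybridization alone always lies within 1 SD of the mean of 2. The count of 135 is thus no measure of stability. The values that moved further were those of ALDH1A1 with offset 0 and of ALDH1A3 with median centring, and those of both genes by the software's and the deposited ratios. ALDH1A1 and ALDH3A1 are limited by signal over background, while ALDH1A3 was well above it in both RNAs. The cause of the moved values was not tested.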
